A study of Mus musculus with 8 samples.

Results

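The genes described here are 8 published non-keratin markers of limbal epithelial stem cells (LESCs), Gpha2, Abcb5, Abcg2, Cebpd, Bmi1, Cd63, Ifitm3 and Lrig1. They are the rows of the deposited table with exactly these symbols, 8 of 23420 named genes, and 7 of them had reads. Both groups came from wild type C57BL/6J mice of 8 weeks without treatment, the limbus group being the dissected limbal rims and the cornea group the corneal buttons inside the rims. The tissue of 16 eyes was pooled by region before RNA extraction, so a rim holds stroma, vessels, nerve and other cells as well as epithelium, and fewer cells of a type cannot be told apart from less RNA per cell. The sample labels list 4 samples per tissue, numbered L001 to L004 as sequencing lanes are, but the table holds the values of only 1 library per tissue.

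The limbus is the ring between cornea and conjunctiva whose basal epithelium holds the stem cells that replenish the corneal epithelium. No single gene defines these cells, and the markers in use differ in kind. They include a secreted hormone subunit (Gpha2), membrane pumps that expel dyes and drugs (Abcg2, Abcb5), regulators of transcription and chromatin linked to quiescence and self-renewal (Cebpd, Bmi1), membrane proteins of endosomes and the cell surface (Cd63, Ifitm3) and a brake on growth factor receptors (Lrig1). Most of them were described in human limbus or in stem cells of other tissues, and several are also made by cells that are not epithelial.

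Reads of each library were worked back from the table, as the processing section explains, and gave 26104317 reads on named genes for the cornea and 21182025 for the limbus. Normalized reads are reads divided by a size factor of the library, 1.0337 for the cornea and 0.9674 for the limbus. Ratios are limbus over cornea unless stated, with an exact 95% Clopper-Pearson confidence interval (CI) of the limbal share of reads, which covers counting error only. A gene was called higher in a tissue where this interval excluded a ratio of 1. With 1 library per tissue there was no spread between replicates and no test, so each call compares these libraries and not the tissues in general.

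The markers did not lean one way. Gpha2, Ifitm3, Cebpd and Cd63 were higher in the limbus library, while Abcg2, Bmi1 and Lrig1 were higher in the cornea library and Abcb5 was listed at 0. Of the 7 markers with reads, 4 were thus called higher in the limbus, against 33.2% of the 13862 genes that passed 3 reads in each library, and 3 were called higher in the cornea, against 40.6%. All 4 limbal markers were 2-fold or more higher, which held for 15.5% of all genes, and 2 of the 3 corneal ones were, which held for 8.99%. The median log2 ratio of the 7 markers was 1.26, and that of all 13862 genes was -0.05. With so few markers these counts only describe the list.

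**Figure D1:**
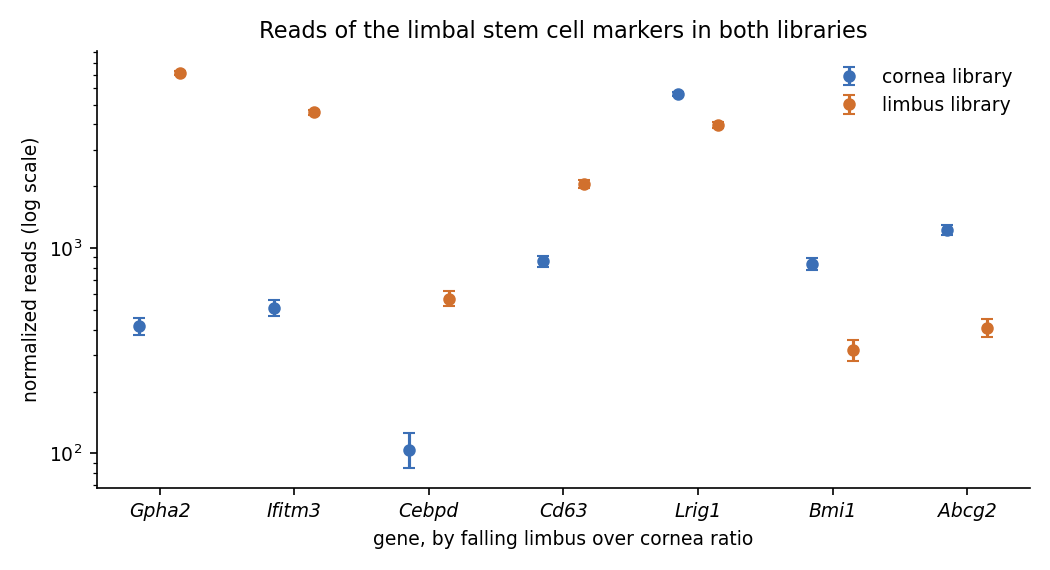
Normalized reads (log axis) of the 7 stem cell markers with reads, cornea library in blue and limbus library in orange, with exact 95% Poisson intervals of the reads. Gpha2 and Ifitm3 show the widest gaps, with limbus above cornea, and the order of the tissues turns from Lrig1 on.

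Gpha2 encodes the alpha subunit of thyrostimulin, a secreted glycoprotein hormone, and marks the quiescent outer limbus in mouse studies. The gene is on chromosome 19 of GRCm38 at 6226380 to 6227768 on the plus strand. The cornea library gave 431 reads and the limbus library 6912, which is 417 and 7145 normalized reads. The limbal value was 17.1 times the corneal one (95% CI 15.5 to 18.9, log2 ratio 4.10). Only 1.1% of the genes compared had a higher ratio, and Gpha2 ranked 153 among the 13862. Had the reads been placed by the deposited fold change alone, without its error, they would be 213 and 7116, with a log2 ratio of 5.16. Its reads ranked it 7395 in the cornea and 408 in the limbus among all genes with reads. Its last 4 exon bases overlap Ppp2r5b on the other strand, a gene with 5051 and 4043 reads that was 1.17 times higher in the cornea (95% CI 1.12 to 1.22).

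The hormone subunits and receptors listed beside Gpha2 had few reads or none. The list of its beta subunit Gphb5, the other glycoprotein hormone subunits Cga, Tshb and Fshb, and the receptors Tshr, Fshr and Lhcgr held 7 genes, of which 5 were listed at 0. Gphb5, with which Gpha2 forms thyrostimulin, had 1 corneal and 60 limbal reads, a ratio of 64.1 with a wide counting interval of 11.1 to 2574. Tshr, the receptor that thyrostimulin activates, had 0 corneal reads, for which as many as 3 would be allowed, and 7 limbal ones. On the RPKM scale, which divides reads by the length of the longest transcript and by the reads of the library on named genes, the limbal level was 428 for Gpha2, 1.76 for Gphb5 and 0.0767 for Tshr. Gpha2 was therefore read at a far higher level than the subunit it pairs with.

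Ifitm3 encodes an interferon-induced transmembrane protein that restricts the entry of enveloped viruses and is also made by many stem cells. In GRCm38 it lies on chromosome 7 at 141009586 to 141010770 on the minus strand. Corneal reads numbered 528 and limbal reads 4433, or 511 and 4583 after normalization. The ratio was 8.97 (95% CI 8.2 to 9.84, log2 ratio 3.17), and 2.94% of the genes compared lay above it. Ifitm1, Ifitm2 and Ifitm3 are neighbouring genes of like sequence, and how reads that match several of them were counted is not given in the sources used here.

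Of the other 6 interferon-induced transmembrane genes listed, 2 were higher in the limbus, 2 were within counting error and 2 had 3 reads or fewer in both libraries. Ifitm1 had by far the most reads of the family, 21623 corneal and 50338 limbal ones, and its ratio was 2.49 (95% CI 2.45 to 2.53). Ifitm2 had 2254 and 3895 reads and a ratio of 1.85 (95% CI 1.75 to 1.95). Ifitm10 had 111 and 126 reads, with a ratio of 1.21 whose interval ran from 0.932 to 1.58. Per length, Ifitm1 stood at 939 RPKM in the cornea and 2694 in the limbus, against 29.8 and 309 for Ifitm3. Ifitm3 thus had the larger ratio and Ifitm1 the larger level.

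Interferon-stimulated genes carry a response element near their start, so the promoters were searched for it as GAAA, any NN and GAAA on either strand, a motif kept after several others had been looked at. RefSeq promoters of GRCm38.p6, from 250 bases before to 50 bases after a start, were at hand for 7 of the 8 markers in 9 windows, with none for Cebpd. The motif was found in 2 of the 9 windows, those of Gpha2 and Ifitm3, and in 3.44% of all 32851 promoters of that length. Because this motif was picked from several, 2 of 9 beside 3.44% is not a test. Gpha2 and Ifitm3 also have the largest limbal ratios, but a link between motif and ratio was not tested. Both stretches are shown with the motif in capitals. That of Gpha2 is chr19:6226151-6226379 on the plus strand and holds 1 match, which begins at position -188 from the RefSeq start. That of Ifitm3 is chr7:141010716-141010742 on the minus strand and runs from its first match to its second. These begin 3 and 20 bases downstream of the RefSeq start, inside the gene as placed above, and not upstream as in Gpha2.
Gpha2: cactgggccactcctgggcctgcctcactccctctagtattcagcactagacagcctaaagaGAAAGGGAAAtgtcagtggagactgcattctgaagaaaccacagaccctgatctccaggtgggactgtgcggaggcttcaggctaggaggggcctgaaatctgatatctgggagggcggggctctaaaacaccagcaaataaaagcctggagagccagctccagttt
Ifitm3: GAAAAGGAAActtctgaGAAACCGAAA
A match of letters is a description only, and no binding was measured.

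Cebpd encodes the transcription factor C/EBP delta, which slows the cell cycle in limbal stem cells in culture. Its place is chromosome 16 at 15887286 to 15891031 on the plus strand, and 562 of its exon bases also belong to exons of Spidr on the other strand. Of the 7 markers with reads it had the fewest in the cornea, with 107 reads against 548 limbal ones, or 104 and 566 normalized reads. The ratio was 5.47 (95% CI 4.44 to 6.8, log2 ratio 2.45), and 5.69% of the genes compared lay above it. The library kit keeps the strand, but whether the counting used it is not given in the sources used here, so reads of Spidr may be among those of Cebpd.

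The related C/EBP genes moved less. Cebpa, which drives differentiation in skin and other tissues, had 631 and 1022 reads and a ratio of 1.73 (95% CI 1.57 to 1.91). Cebpb, a factor of the acute response, had 223 and 403 reads and a ratio of 1.93 (95% CI 1.64 to 2.28). Ddit3, the stress-induced member, had 172 and 284 reads and a ratio of 1.76 (95% CI 1.45 to 2.14). Cebpg went the other way, with 1785 and 1226 reads and a level 1.36 times higher in the cornea (95% CI 1.27 to 1.47). Of the 5 listed relatives, 3 were higher in the limbus, 1 was higher in the cornea and 1 had 3 reads or fewer in both libraries, and none of the 4 compared reached a 2-fold difference.

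Cd63 encodes a tetraspanin of late endosomes, exosomes and melanosomes. The gene spans chromosome 10 from 128900989 to 128912822 on the plus strand. It was read 890 times in corneal and 1990 times in limbal RNA, or 861 and 2057 normalized reads. The ratio was 2.39 (95% CI 2.21 to 2.59, log2 ratio 1.26), and 13% of all genes compared lay above it. Scaled to the reads of Actb and Gapdh, the log2 ratio was 0.92, below a 2-fold difference. A processed pseudogene, Cd63-ps, is annotated in this genome, and its values are not analysed here.

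Of 25 other tetraspanins listed, 17 were higher in the limbus, 4 were higher in the cornea and 3 were within counting error, and Tspan11 had 0 corneal reads, where as many as 3 would be allowed, and 133 limbal ones. Over all genes compared the shares were 33.2% and 40.6%. The median log2 ratio of the 25 was 0.69, and 9 of the 24 compared were 2-fold or more higher in the limbus, with 0 on the corneal side, against 15.5% and 8.99% of all genes. The summed normalized reads ran the other way, at 79205 for the cornea and 69535 for the limbus, since the tetraspanins with the most reads were higher in the cornea or differed little. Upk1b, known from the lining of the bladder, had 43730 and 30258 reads and was 1.35 times higher in the cornea (95% CI 1.33 to 1.37). Cd9, a partner of integrins and growth factor receptors, had 15789 and 9497 reads and was 1.56 times higher in the cornea (95% CI 1.52 to 1.6). Cd82 had a ratio of 1.1 (95% CI 1.07 to 1.14) and Cd151, a partner of laminin-binding integrins, one of 1.15 (95% CI 1.1 to 1.21). The ends of the 24 compared were Tspan18, with 5 and 159 reads and a ratio of 34 (95% CI 14.3 to 106), and Tspan15, 1.85 times higher in the cornea (95% CI 1.64 to 2.09).

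**Figure D2:**
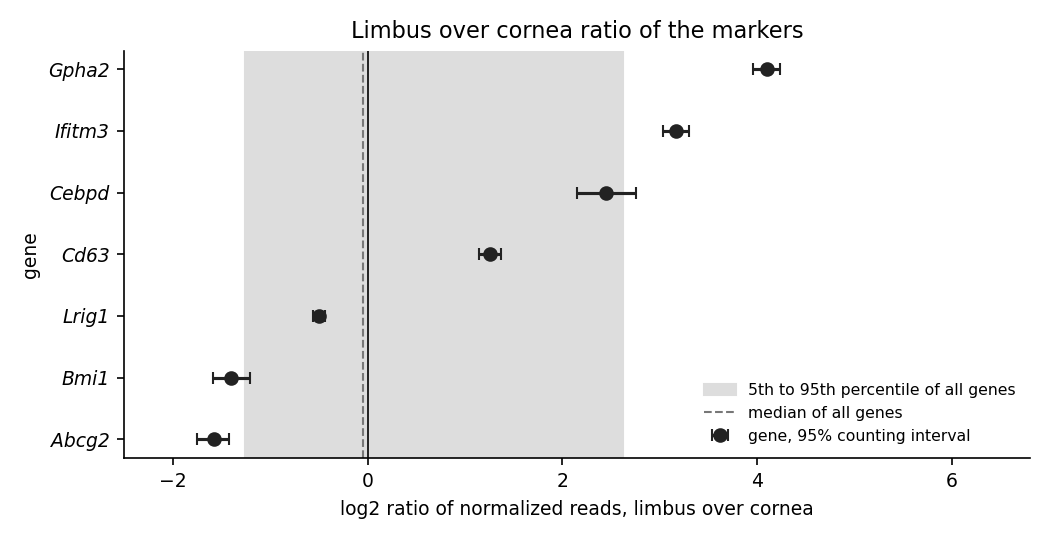
Log2 ratio of normalized reads, limbus over cornea, of the 7 stem cell markers with reads; points are the ratios and bars the 95% counting intervals, the grey band runs from the 5th to the 95th percentile of the 13862 genes compared and the dashed line is their median. Gpha2 at 4.10 and Ifitm3 at 3.17 lie above the band that ends at 2.62, and Bmi1 at -1.40 and Abcg2 at -1.58 lie below its other end at -1.26.

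Abcg2 encodes the breast cancer resistance protein, the pump that lets stem cells exclude a DNA dye and so appear as a side population. It is on chromosome 6 at 58584523 to 58695676 on the plus strand. The corneal library held 1267 of its reads and the limbal library 396, or 1226 and 409 normalized reads. The level was thus 2.99 times higher in the cornea (95% CI 2.67 to 3.36, log2 ratio -1.58), and only 2.63% of the genes compared had a lower ratio. Abcg2 was the marker furthest to the corneal side.

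Abcb5, the related pump used to isolate limbal stem cells from human and mouse corneas, lies on chromosome 12 at 118867824 to 118966421 on the minus strand. The table lists it at 0, so neither library had a read. Since 0 reads can stand for as many as 3 in a library at this depth, its level was below detection in both tissues and no ratio can be given.

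The other ABCB and ABCG transporters were spread over both sides. Of 14 listed, 4 were higher in the limbus, 3 were higher in the cornea and 1 was within counting error, 5 had 3 reads or fewer in the cornea with more in the limbus, and Abcb11, the bile salt pump of the liver, was listed at 0. Abcg1, a cholesterol transporter, had 2328 and 1639 reads and was 1.33 times higher in the cornea (95% CI 1.25 to 1.42). The mitochondrial transporters Abcb8 and Abcb10 had ratios of 1.19 (95% CI 1.08 to 1.31) and 1.15 (95% CI 1.02 to 1.3). Abcb1a, a multidrug pump known from the blood vessels of the brain, had the largest ratio of the 8 genes above 3 reads in each library, 12.4 (95% CI 5.74 to 31.7), from 7 and 81 reads.

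Bmi1 encodes a subunit of Polycomb repressive complex 1 that holds genes such as cell cycle inhibitors silent and is needed for self-renewal in several tissues. The gene lies on chromosome 2 at 18677018 to 18686629 on the plus strand. Its reads were 866 in corneal and 307 in limbal RNA, or 838 and 317 normalized reads. The level was 2.64 times higher in the cornea (95% CI 2.31 to 3.02, log2 ratio -1.40), and 3.79% of the genes compared had a lower ratio. The intervals of the Bmi1 and Abcg2 ratios overlapped, while no other pair of markers next to each other in ratio did.

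Most of the complex was nearer to balance than Bmi1. Of 15 other genes of the complex, 4 were higher in the limbus, 5 were higher in the cornea and 6 were within counting error, with a median log2 ratio of 0.11. Rnf2, a ubiquitin ligase that Bmi1 pairs with, had 1149 and 535 reads and was 2.01 times higher in the cornea (95% CI 1.81 to 2.23). Ring1, the alternative ligase partner, was within counting error, with 516 and 520 reads and a ratio of 1.08 (95% CI 0.952 to 1.22). Cbx6, one of the subunits that read the Polycomb mark on histones, was the exception on the limbal side, with 682 and 2996 reads and a ratio of 4.69 (95% CI 4.32 to 5.11). Phc2, the subunit with the most reads, had a ratio of 1.03 (95% CI 0.976 to 1.09). Phc1 had a ratio of 1.12 (95% CI 1.04 to 1.22).

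Lrig1 encodes a transmembrane protein that promotes the breakdown of EGF family receptors and marks stem cells in epidermis and gut. It sits on chromosome 6 at 94604529 to 94700158 on the minus strand, and 144 of its exon bases lie opposite exons of Slc25a26, a gene with 103 and 93 reads. It was the most abundant marker in the cornea, with 5814 reads against 3850 limbal ones, or 5624 and 3980 normalized reads. The level was 1.41 times higher in the cornea (95% CI 1.36 to 1.47, log2 ratio -0.50), the smallest difference of the 7 markers. Of all genes compared, 25.4% had a lower ratio, so the difference was well inside the range of the table.

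The receptor Egfr, which Lrig1 restrains, had 5238 and 3471 reads and was 1.41 times higher in the cornea as well (95% CI 1.35 to 1.47). The related receptor Erbb2 had a ratio of 1.16 (95% CI 1.11 to 1.22), and Erbb3 a log2 ratio of 0.08 (95% CI 0.01 to 0.16). The paralog Lrig3 had 651 and 810 reads and a ratio of 1.33 (95% CI 1.2 to 1.48). Of the 6 paralogs and receptors listed, 3 were higher in the limbus and 2 were higher in the cornea, and Erbb4 had 2 and 4 reads. None of the 5 genes compared differed 2-fold.

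**Figure D3:**
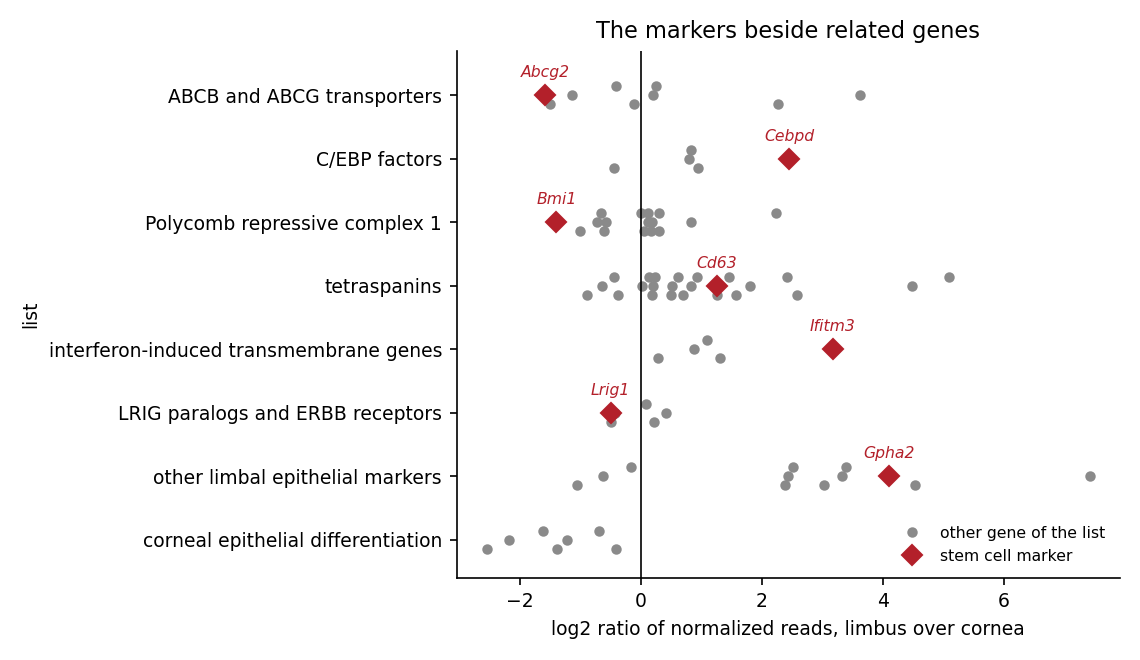
Log2 ratio of normalized reads, limbus over cornea, with a row for each list; red diamonds are the stem cell markers, set beside the related genes that passed 3 reads in each library (grey points, shifted up and down only to separate them), and Gpha2 is set beside the other limbal epithelial markers. Cebpd at 2.45, Ifitm3 at 3.17 and Bmi1 at -1.40 lie outside the ranges of their lists, -0.45 to 0.95, 0.28 to 1.31 and -1.01 to 2.23.

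Levels of different genes were compared per length, within each tissue. In the cornea the order was Lrig1 at 45 RPKM, Ifitm3 at 29.8, Gpha2 at 21.7, Cd63 at 11.8, Bmi1 at 9.23, Abcg2 at 8.49 and Cebpd at 1.09. In the limbus it was Gpha2 at 428 RPKM, Ifitm3 at 309, Lrig1 at 36.7, Cd63 at 32.5, Cebpd at 6.91, Bmi1 at 4.03 and Abcg2 at 3.27. Bmi1 and Abcg2 could not be put in order in either tissue, since their 95% Poisson intervals overlapped, and the other neighbours were apart. Gpha2 was at the top in the limbus under either placement of its reads, while in the cornea the placement by the fold change alone put it at 10.7 RPKM and in place 4, behind Cd63. Gpha2 and Ifitm3 made up 4.35% and 5.33% of the normalized reads of the markers in the cornea against 37.5% and 24% in the limbus. The summed normalized reads of the markers were 9580 and 19058.

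For each marker the gene with the most similar pair of values was found, by the distance in log2 normalized reads over 2 libraries among 15525 genes with reads in both. Gpha2 was nearest to the lens crystallin gene Cryaa (468 and 5423 reads, distance 0.37) and Ifitm3 to the dicarboxylate transporter Slc13a2 (514 and 3513 reads, distance 0.338). The other markers had closer neighbours, at distances of 0.0198 to 0.0529. They were Eva1a for Abcg2, Kank2 for Cebpd, Pank1 for Bmi1, Tubb2b for Cd63 and Zfp706 for Lrig1. With only 2 values per gene such likeness is a description of level and ratio.

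The other limbal epithelial markers were set beside these values. They do not show how cleanly the limbus was dissected, since 6 of 8 genes of conjunctival and goblet epithelium were higher in the limbus library too. Krt14 and Krt15, keratins of basal limbal cells, had ratios of 5.75 (95% CI 5.63 to 5.88) and 10 (95% CI 9.91 to 10.1), and Krt19 had 1417 and 30740 reads and a ratio of 23.2 (95% CI 22 to 24.5). The ratio of Gpha2 lay between those of Krt15 and Krt19, or above both with the reads placed by the fold change alone (log2 ratio 5.16 against 4.53 for Krt19), and that of Ifitm3 lay between Krt14 and Krt15. The largest ratio of this list was that of Krt17, a keratin of stressed and appendage epithelium, at 171 (95% CI 136 to 219). Trp63, the basal factor whose p63 protein is used to grade limbal grafts, had 8737 and 3929 reads and was 2.08 times higher in the cornea (95% CI 2 to 2.16), on the same side as Abcg2, Bmi1 and Lrig1. Of the 11 genes of the list, 8 were higher in the limbus and 3 were higher in the cornea.

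All 7 genes of corneal epithelial differentiation were higher in the cornea. Krt12, the keratin of corneal epithelium, had 1137735 and 233324 reads and was 4.56 times higher there (95% CI 4.54 to 4.58). Slurp1, a secreted protein of the corneal surface, was 5.84 times higher (95% CI 5.71 to 5.98), and the enzymes Aldh3a1 and Tkt, which are very abundant in cornea, were 2.33 times (95% CI 2.32 to 2.34) and 3.08 times higher (95% CI 3.05 to 3.11). Krt5, a basal keratin shared by both epithelia, was 1.32 times higher (95% CI 1.32 to 1.33). The summed normalized reads of the list were 2561563 for the cornea and 1033519 for the limbus, of which Krt5 gave 594079 and 448560.

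Markers of other tissues moved with the limbal values. The 5 skeletal muscle genes were all higher in the limbus, with summed normalized reads of 77.4 and 9975. Of 8 blood vessel endothelial genes, 5 were higher in the limbus and 3 had 3 reads or fewer in the cornea, with sums of 245 and 3594. All 6 melanocyte genes were higher in the limbus (sums of 334 and 1699), as were all 7 leukocyte genes read (6576 and 11842) and 5 of 6 fibroblast genes (58110 and 109576). Of 4 Schwann cell genes, 3 were higher in the limbus and Sox10 had 2 reads in the cornea, with sums of 4247 and 6958. Of 8 genes of conjunctival and goblet epithelium, 6 were higher in the limbus, and the sums of the list were 38036 and 216727. The ratios of these 6 ran from 3.63 for Krt13 to 35.7 for Krt4. Agr2, also among the 6, had 46 and 618 reads. Spdef, with 18 and 25 reads, was within counting error. Muc5ac, the defining mucin of goblet cells, had 1 read in each library, too few to compare. None of the cell type genes read was at 0 in the limbus library, and Adgre1 was not analysed here. Gpha2, Ifitm3, Cebpd and Cd63 were higher in the same library as these cell types, and the part of other cells in the marker ratios was not tested.

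**Figure D4:**
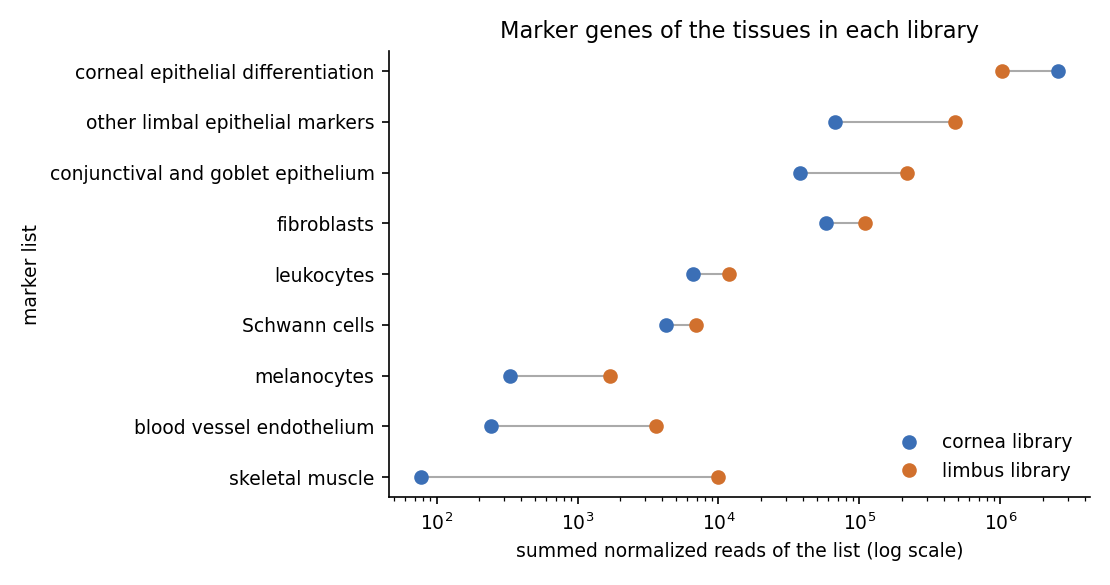
Summed normalized reads (log axis) of each marker list in the cornea library (blue) and the limbus library (orange), with a grey line joining the values of a list. Corneal epithelial differentiation has its higher sum in the cornea, at 2561563, and the other lists have theirs in the limbus, with skeletal muscle furthest apart, at 77.4 and 9975.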

How the data were processed

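RNA of pooled limbal rims and corneal buttons was sequenced as stranded total RNA, paired-end. Per the paper's methods, the authors trimmed adaptors, used CLC Genomics Workbench 20 for mapping to GRCm38 (mm10), and name the trimmed mean of M-values as their normalization. The authors deposited 1 table of 40904 rows with, per gene, a mean normalized signal over both libraries, a log2 fold change and its error, and p-values. The deposited log2 fold changes and errors served only to work back reads, their values are not reported, and the p-values were not used. The gene symbol alone chose the rows, since of 18556 accessions found in RefSeq only 2 belonged to the gene of their row. Rows without a symbol (17484) were left out, and 5978 named genes were listed at 0.

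Each mean adds up whole reads from 2 libraries, where 109 reads of the cornea weigh as much as 102 of the limbus. Where several pairs of reads gave the mean (11299 genes), the pair was taken that returned the deposited fold change and error under a negative binomial model with a shrunken fold change, and all 17442 genes were met to within 0.001 in sum. For 85 genes with a second pair nearly as close, none of them a marker, the pair with the dispersion of like genes was taken. Read numbers are therefore derived, not a count table. A miss within 0.001 does not by itself single out a pair. For Ifitm3 the pair taken missed by 3.1e-07 and the next one by 0.00049. For Gpha2 the pair taken missed by 1.6e-07 and the next one by 0.0011. The alternative placement by the fold change alone left out the error and gave each pair the dispersion of like genes. Tested on simulated data of 17040 genes for the limbus over cornea comparison, all 17040 pairs were found. The simulated data were made with the same model, so this checks the working back only. It cannot show that the deposited values follow that model.

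Ratios, exact intervals and alternatives (3 other scalings, a pseudocount of 1 normalized read, 99% intervals, a minimum of 10 reads, exon union length, reads placed by the fold change alone) were computed in Python 3.11.15 with numpy 2.4.6 and scipy 1.17.1. Intervals cover counting error only, since there was 1 library per tissue. They treat each read as independent, and PCR copies were not told apart by molecular identifiers, so they may be too narrow even for that. A library with 3 reads or fewer entered medians at 3 reads, and genes at or under 3 in both were left out. Positions and lengths are from GENCODE M21. All 8 markers are named, and from each list of related genes the 4 with the most reads and those with the largest and smallest ratio, other names having been chosen after their values were seen. The values of 3 listed genes are left out. The markers and lists were chosen with earlier results of these data known.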

Additional observations from a re-analysis of the deposited data

How the results depend on the processing

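Scaling moved the ratios as a whole: every log2 ratio rose by 0.21 with scaling to total reads and by 0.02 with a trimmed mean of M-values, and changed by -0.34 with scaling to Actb and Gapdh, which had ratios of 1.31 and 1.06. The median log2 ratio of the markers was 1.46 with total reads and 0.92 with Actb and Gapdh, against 1.26. With Actb and Gapdh, 3 markers in place of 4 were 2-fold or more higher in the limbus, Cd63 being the one that left, at a log2 ratio of 0.92. With the reads placed by the fold change alone, the log2 ratio of Gpha2 was 5.16 in place of 4.10, and the other 6 markers had the same reads. In these alternatives, in a pseudocount of 1 normalized read, in 99% intervals and in a minimum of 10 reads, the same 4 markers were called higher in the limbus and the same 3 higher in the cornea. The order by level per length had the same sequence of genes with exon union lengths, but Bmi1 and Abcg2 then had intervals apart, and Cd63 and Bmi1 overlapped in the cornea. With the reads placed by the fold change alone, a setting added for this order after the data were seen, Gpha2 and Cd63 changed places in the cornea. No paired analysis was possible because no column of the table belongs to a numbered sample, and for the same reason no replicate could be left out. Depth limits Abcb5, Gphb5 and Tshr, which had 0, 1 and 0 reads in the cornea.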

Other observations

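Some genes of the cell type lists stood apart from the rest of their list, chosen after their values were seen. Itgam, the integrin subunit of macrophages and neutrophils, had 6003 corneal and 8793 limbal reads (ratio 1.57, 95% CI 1.51 to 1.62), while Ptprc, which leukocytes share, had 30 and 72. Mbp, a myelin protein whose gene also gives transcripts outside glia, had 4334 and 5495 reads, while Sox10, a factor of Schwann cells, had 2 and 115. The ratio of Kdr, a receptor of blood vessel endothelium, was 1.75 (95% CI 1.44 to 2.13) with 170 reads in the cornea, where Pecam1 had 6. These genes carry most of the corneal sum of their lists.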
